A study of Rattus norvegicus and Mus musculus with 10 samples.

Results

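Heavy chain V, J and isotype use was read from the B cell receptor (BCR) contig tables of mouse dura. A member is a cell barcode with a productive heavy chain contig (chain IGH), represented by its contig with the most unique molecular identifiers (UMIs, tags that count original RNA molecules). There were 432 members among 1344 barcodes, 92 of 159 in the naive table and 340 of 1185 in the EAE table. The study profiled leukocytes of border tissues of the central nervous system in rats and mice. Both mouse samples were skull dura of C57BL/6 animals, pooled from 4 unimmunized (naive) mice and from 3 mice in which active experimental autoimmune encephalomyelitis (EAE), an induced inflammatory disease of the central nervous system, was at its peak. The sort took CD45+ cells that an antibody injected into the blood had not stained, which keeps leukocytes outside vessels, and no allele or transgene is named for either group. Mouse ages are not given in the labels used here.

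The groups follow the sample titles. The condition field gives EAE for both tables, and the description of each table carries the name of the other condition. The barcodes were therefore compared with the expression libraries. Of the 340 heavy chain barcodes in the EAE table, 233 (68.5%, 95% interval 63.3 to 73.4) occurred in the EAE expression library and 1 in the naive one. Of the 92 in the naive table, 0 occurred in either library, which allows a share of up to 3.26%. The naive heavy chains can therefore not be placed in expression clusters, and their title is not checked by barcodes. Each condition is 1 pooled sample, so differences between the tables have no replicate check, no test was made, and all intervals (exact Clopper-Pearson for shares, exact Poisson for UMI rates, 95%) cover counting error only. They treat barcodes as separate draws, which barcodes of 1 clone are not. Beside a count of 0 stands the limit it allows, taken as 3 counts of the total and not as an interval.

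A heavy chain gene is assembled in the developing B cell by joining a V, a D and a J segment, and bases lost or added at the joints make the third complementarity determining region (CDR3) nearly unique to each rearrangement. Barcodes with the same V gene, J gene and CDR3 bases are called a clone here. The joined exon is first read with the Ighm constant gene (IgM), and with Ighd (IgD) by alternative splicing. Class switch recombination later replaces Ighm by a downstream constant gene such as Ighg2b, Ighg2c or Igha without changing the V-D-J exon. C57BL/6 mice carry Ighg2c in the place of Ighg2a. IgA is the main isotype of mucosal plasma cells, the antibody-secreting end stage of the lineage.

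All 60 V, J and constant genes used had an entry in GENCODE M21 on GRCm38, the assembly that mm10 names. The locus lies on the minus strand of chromosome 12. Ighj1 to Ighj4 run from chr12:113429781-113429833 to chr12:113428514-113428567, with Ighj2 at chr12:113429468-113429567 and Ighj3 at chr12:113429085-113429132. The constant genes follow, with Ighm at chr12:113418558-113422730, Ighd at chr12:113406604-113416324, Ighg2b at chr12:113302965-113307933, Ighg2c at chr12:113285325-113288932 and Igha at chr12:113254830-113260236. The V genes stretch away on the other side, from 149 to 2570 kb from Ighj1.

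The CDR3 sequences of the leading clones are printed to show what defines a clone and how the joints differ between isotypes. They run 5′ to 3′ from the conserved cysteine codon to the tryptophan codon. Lower case marks the bases at the start that match the germline V gene and those at the end that match the germline J gene without interruption. Capitals mark the bases between them, which hold the D segment and bases added at the joints. A mutated or allelic base near an end is also counted among the capitals. The 6 naive clones of 5 or more barcodes, and the seventh, which held 1 of the strongest contigs, read:
IGHV1-72 IGHJ3, IGHG2B: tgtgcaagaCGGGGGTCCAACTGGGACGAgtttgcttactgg
IGHV5-16 IGHJ2, IGHA: tgtgcaagagGGGGTTACgactactgg
IGHV11-2 IGHJ2, IGHA: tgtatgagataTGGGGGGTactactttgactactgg
IGHV1-34 IGHJ3, IGHA: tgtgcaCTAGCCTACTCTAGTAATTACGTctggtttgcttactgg
IGHV5-17 IGHJ4, IGHA: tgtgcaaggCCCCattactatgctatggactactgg
IGHV1-64 IGHJ2, IGHA: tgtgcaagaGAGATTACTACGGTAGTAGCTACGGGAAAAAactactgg
IGHV1-18 IGHJ2, IGHA: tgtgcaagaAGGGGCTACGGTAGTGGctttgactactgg

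The 7 EAE clones of 5 or more barcodes read:
IGHV8-8 IGHJ4, IGHA: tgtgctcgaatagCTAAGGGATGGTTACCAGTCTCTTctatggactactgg
IGHV7-1 IGHJ1, IGHM: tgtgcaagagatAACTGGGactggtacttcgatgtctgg
IGHV1-39 IGHJ3, IGHA: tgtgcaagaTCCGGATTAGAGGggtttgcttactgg
IGHV1-78 IGHJ2, IGHM: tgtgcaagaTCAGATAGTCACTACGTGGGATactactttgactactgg
IGHV5-17 IGHJ4, IGHA: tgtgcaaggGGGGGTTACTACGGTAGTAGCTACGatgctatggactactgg
IGHV9-3 IGHJ3, IGHG2C: tgtgcaagaCGGGGGGGGCCctgg
IGHV1-9 IGHJ1, IGHM: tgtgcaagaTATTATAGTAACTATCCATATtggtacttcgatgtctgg

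IGHV5-17 with IGHJ4 and isotype IGHA led a clone in both tables, and the sequences show that these were separate rearrangements. The naive one had 4 bases between V and J and the whole germline end of IGHJ4 (23 of 23 bases). The EAE one had 25 bases between them, of which 19 matched Ighd1-1, and 17 of the 23 J bases. The IGHG2C clone had the fewest bases matching the germline J end of these 14 clones, 4 of 17 for IGHJ3. It had no D match of 6 or more bases. The end of its CDR3 also matches the start of germline IGHJ3, which holds an earlier tryptophan codon. Whether J bases were lost or the CDR3 was called to that codon cannot be told apart here. The IGHV7-1 clone had 7 bases between V and J, all of which matched Ighd4-1, and 20 of 22 germline IGHJ1 bases.

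IgA was the most frequent isotype of the naive heavy chains and IgM of the EAE heavy chains. Of the 92 naive barcodes 58 were IGHA (63.0%, 52.3 to 72.9), 28 were IGHG2B (30.4%, 21.3 to 40.9) and 6 were IGHM (6.52%, 2.43 to 13.7). Of the 340 EAE barcodes 188 were IGHM (55.3%, 49.8 to 60.7), 131 were IGHA (38.5%, 33.3 to 43.9) and 16 were IGHG2C (4.71%, 2.71 to 7.53). The remaining EAE barcodes were 2 IGHD, 1 IGHG2B and 2 with no constant gene given. IGHG2C was not seen in the naive table. The labels' protocol says that the constant region was removed during enrichment, and how the isotypes were called after that step is not given in the sources used here. This bears on each isotype share.

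Counting each clone once for each of its isotypes changed the shares in both tables, and the leading isotype of each stayed the same. In EAE, IGHM made up 84 of 95 such entries (88.4%, 80.2 to 94.1), IGHA 6 (6.32%, 2.35 to 13.2) and IGHG2C 1. In the naive table IGHA remained the leading class with 13 of 22 (59.1%, 36.4 to 79.3). IGHM followed with 6 (27.3%, 10.7 to 50.2) and IGHG2B with 3 (13.6%, 2.91 to 34.9). All 5 naive IGHA clones of 1 barcode had the CDR3 of the IGHV1-34 or the IGHV1-22 clone under another V gene name. Counting each CDR3 once per isotype, whatever its V gene, left 8 naive IGHA entries of 16 (50%, 24.7 to 75.3), 5 IGHM and 3 IGHG2B. In EAE that count gave 82 IGHM entries of 92 (89.1%, 80.9 to 94.7), 5 IGHA and 1 IGHG2C. The 131 EAE IgA barcodes thus held 5 different CDR3s and the 16 IgG2c barcodes 1, while the 188 IgM barcodes held 82. Counted by UMIs, IGHG2B held 5277 of the 6475 naive heavy chain UMIs (81.5%) and IGHM 4589 of the 7385 EAE heavy chain UMIs (62.1%).

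**Figure D1:**
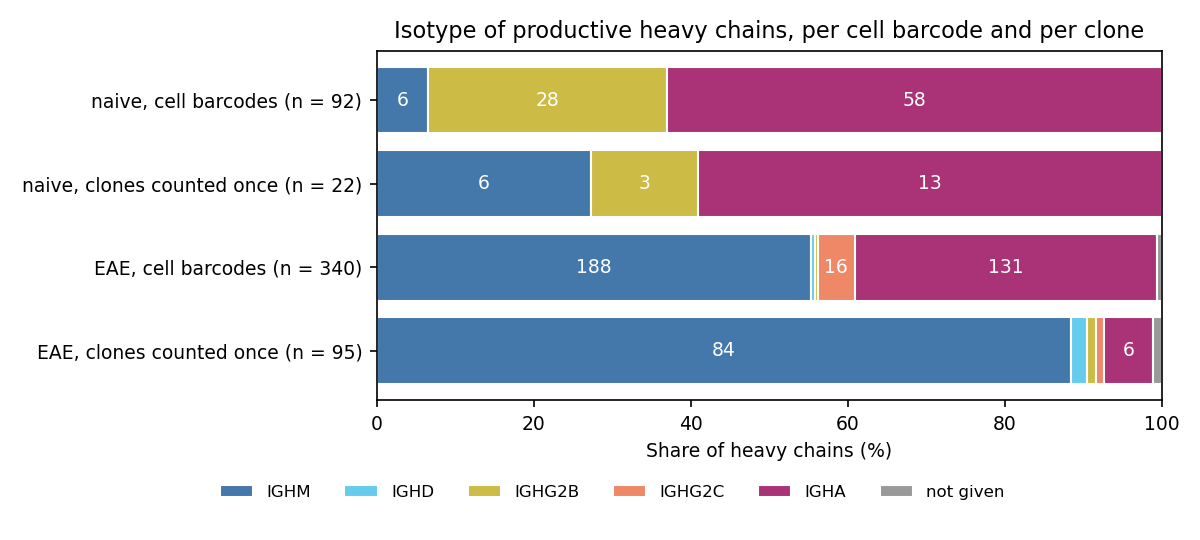
Share of heavy chains (%) by constant gene in the naive and EAE tables, counted per cell barcode and with each clone counted once per isotype; the numbers in the bars are barcodes or clones. IGHA stands at 131 barcodes and 6 clones in EAE and at 58 barcodes and 13 clones in the naive table.

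A few V genes gave most barcodes of each switched isotype and also of EAE IGHM. IGHV5-17 was among the 3 leading V genes of IGHA in both tables. Among naive IGHA barcodes IGHV5-16 led with 13 of 58 (22.4%, 12.5 to 35.3), then IGHV11-2 with 10 (17.2%, 8.59 to 29.4) and IGHV5-17 with 8 (13.8%, 6.15 to 25.4). IGHV11-2 is a V gene well known from B-1a cells that bind phosphatidylcholine. Among naive IGHG2B barcodes 26 of 28 used IGHV1-72 (92.9%, 76.5 to 99.1). Among EAE IGHA barcodes 91 of 131 used IGHV8-8 (69.5%, 60.8 to 77.2), 21 used IGHV1-39 and 16 used IGHV5-17. All 16 EAE IGHG2C barcodes used IGHV9-3.

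EAE IgM used the widest range of V genes, 43 of the 45 V genes in that table and all 11 of its V families. IGHV7-1 led by barcodes with 74 of 188 (39.4%, 32.3 to 46.7), followed by IGHV1-78 with 17 and IGHV1-9 with 13. With each clone counted once, the IGHV1 family held 46 of 84 IgM entries (54.8%, 43.5 to 65.7), beside 53 of the 113 V genes annotated in the locus (46.9%). The IGHV9 family held 9 of 84 (10.7%, 5.02 to 19.4) beside 4 of the 113 annotated genes (3.54%). IGHV9-3 was the V gene found in the most EAE clones, 8 of 93 (8.60%, 3.79 to 16.2), and IGHV1-81 came next with 5. The naive table had 3 clones each for IGHV1-64 and IGHV1-72, among 15 V genes and 21 clones. Of these, 2 of the 3 IGHV1-64 and 2 of the 3 IGHV1-72 clones shared their CDR3 with a clone of another V gene, so their V names are uncertain.

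The other V genes among the 10 most frequent in the naive table were IGHV1-34 (8 barcodes), IGHV1-64 (7), IGHV1-18 (5), IGHV1-12 and IGHV1-22 (3 each) and IGHV2-2 (2, both IGHM). In EAE they were IGHV2-3 (7 barcodes), IGHV1-81 (5) and IGHV1-26 (4). The other 4 naive IGHM barcodes used IGHV1-15, IGHV1-64, IGHV1-77 and IGHV6-6, 1 each. Per clone, the V genes of EAE IgM lay at a median of 1337 kb from Ighj1 (quartiles 711 to 2218), and the 113 annotated V genes at a median of 1182 kb (639 to 1813). Naive IgA clones lay at a median of 1316 kb (1186 to 2078, n = 13). Of these 13, 5 had the CDR3 of the IGHV1-34 or IGHV1-22 clone under another V gene name. Their V positions are therefore uncertain.

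J gene use also differed by isotype when counted by barcode. Naive IGHA barcodes used mainly IGHJ2 (40 of 58, 69.0%, 55.5 to 80.5) and none used IGHJ1 (0 of 58, a limit of 5.17%). Naive IGHG2B barcodes used IGHJ3 (27 of 28, 96.4%, 81.7 to 99.9), and 4 of the 6 naive IGHM barcodes used IGHJ1. EAE IGHA barcodes used mainly IGHJ4 (109 of 131, 83.2%, 75.7 to 89.2), and 0 used IGHJ2 (a limit of 2.29%). EAE IGHM barcodes used mainly IGHJ1 (102 of 188, 54.3%, 46.8 to 61.5), with IGHJ2 next (52, 27.7%, 21.4 to 34.6), and all 16 IGHG2C barcodes used IGHJ3.

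Counted by clone, the leading J gene of EAE IgM was IGHJ2 (32 of 84, 38.1%, 27.7 to 49.3), then IGHJ1 (21, 25.0%, 16.2 to 35.6), IGHJ3 (17, 20.2%) and IGHJ4 (14, 16.7%). Neighbours in that order had overlapping intervals. The barcode share of IGHJ1 was set by the IGHV7-1 and IGHV1-9 clones, which gave 83 of its 102 barcodes. Naive IgA kept IGHJ2 in front by clone (8 of 13, 61.5%, 31.6 to 86.1), and IGHJ4 was used by 4 of 6 EAE IgA entries (66.7%, 22.3 to 95.7).

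**Figure D2:**
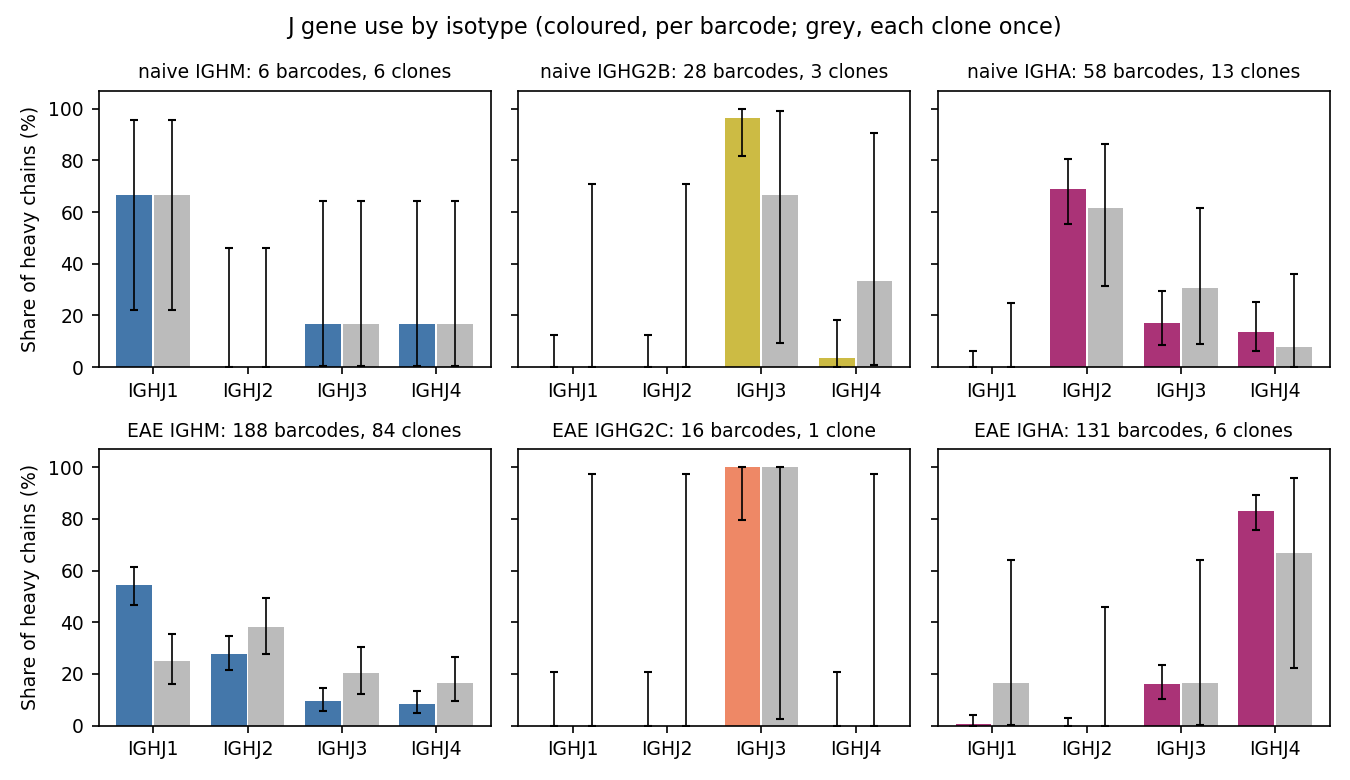
Share of heavy chains (%) using IGHJ1 to IGHJ4 in each isotype, with 95% Clopper-Pearson intervals; coloured bars count cell barcodes and grey bars count each clone once. IGHJ1 of EAE IGHM stands at 54.3% by barcode and 25.0% by clone, and IGHJ4 of EAE IGHA at 83.2% and 66.7%.

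Of the 74 V-J pairs in EAE, 17 occurred in 2 or more clones, together 36 of the 93 clones. IGHV9-3 with IGHJ2 was found in 4 clones and 16 pairs in 2, among them IGHV1-15 with IGHJ2, IGHV1-26 with IGHJ2, IGHV1-26 with IGHJ4 and IGHV1-55 with IGHJ3. Of the 19 naive pairs, IGHV1-64 with IGHJ2 and IGHV1-72 with IGHJ3 occurred in 2 of 21 clones each, and IGHV1-12 with IGHJ2, IGHV1-15 with IGHJ1 and IGHV1-18 with IGHJ2 in 1. The tables had 7 pairs and 9 V genes in common, which is 60% of the naive and 20% of the EAE V genes. Clones, CDR3 nucleotide sequences and CDR3 amino acid sequences in common numbered 0. A count of 0 allows up to 14.3% of the 21 naive and 3.23% of the 93 EAE clones.

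CDR3 length followed the leading clones. All lengths were multiples of 3. Naive IGHA had a median of 36 bases (range 27 to 48, n = 58), naive IGHG2B 42 (39 to 45, n = 28) and naive IGHM 39 (36 to 57, n = 6). EAE IGHA had a median of 51 bases (36 to 51, n = 131), EAE IGHM 39 (24 to 57, n = 188) and EAE IGHG2C 24 in all 16 barcodes. By clone, EAE IGHM had a median of 42 bases (quartiles 38.2 to 48, n = 84), EAE IGHA 46.5 (n = 6) and naive IGHA 36 (n = 13). The 8 codons given for the IGHG2C clone were the shortest length in either table, shared with 3 EAE IgM clones. Where the CDR3 of the IGHG2C clone ends is uncertain, as said above.

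The bases at the joints were counted for each clone. Over all EAE clones the median number of bases between the V and J matches was 18, and a median of 3 germline J bases was missing. The 7 EAE clones of 5 or more barcodes had medians of 21 and 4, and the 83 clones of 1 barcode 18 and 3. In the naive table the median between V and J was 20 over 21 clones and ranged from 4 to 31. A D match of 6 or more bases was found in 81 of 93 EAE and 17 of 21 naive clones. How often a match of that length arises by chance was not computed, so a short match does not identify the D gene. Ighd1-1 alone gave the best match in 30 EAE and 3 naive clones, and the deposited tables name a D gene for 21 and 6 barcodes, always IGHD1-1.

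**Figure D3:**
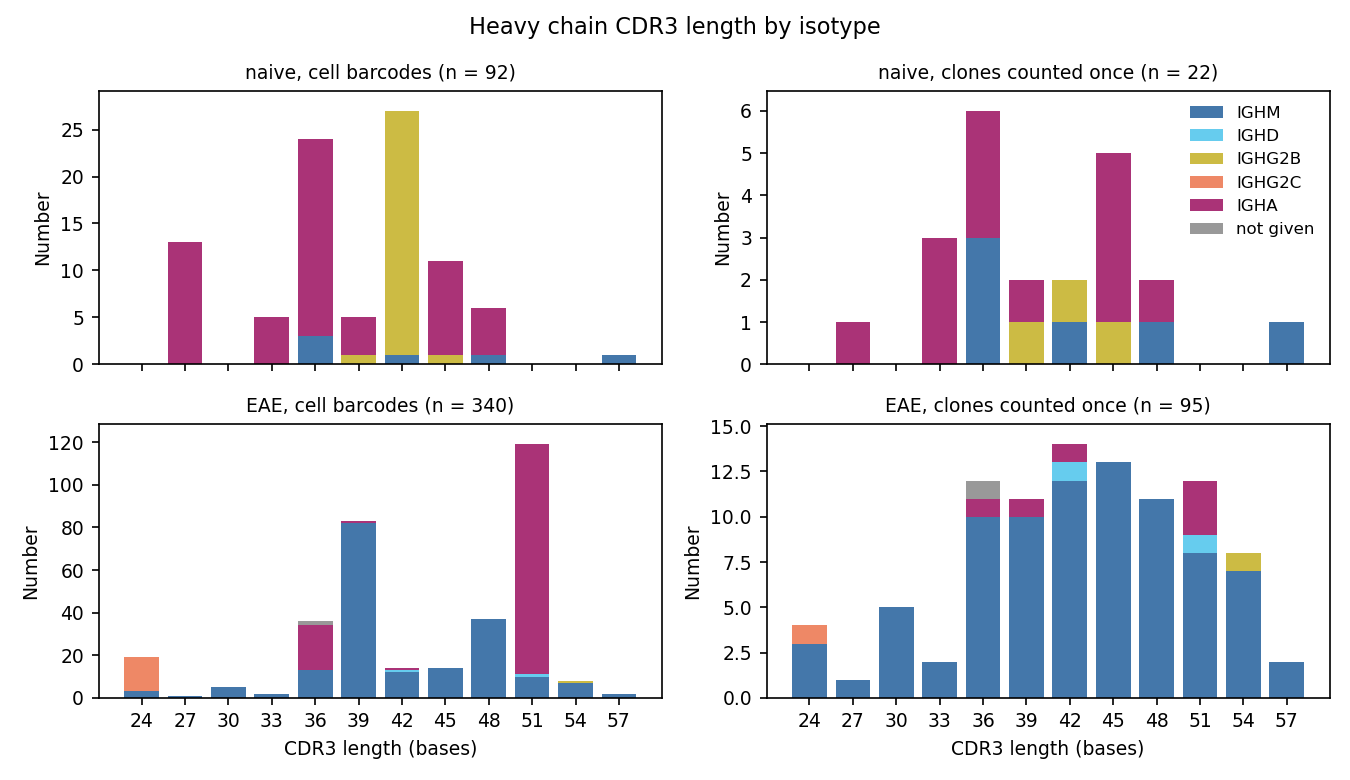
Number of cell barcodes (left) and of clones counted once per isotype (right) at each heavy chain CDR3 length in bases, coloured by isotype, for the naive (top) and EAE (bottom) tables. On the left, IGHV7-1 IGHJ1 gives 73 of the 83 EAE barcodes at 39 bases and IGHV8-8 IGHJ4 94 of the 119 at 51 bases (IGHV5-17 IGHJ4 16), and on the right IGHM has its median at 42 bases.

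Most barcodes belonged to clones of 2 or more. In the naive table this held for 80 of 92 barcodes (87.0%, 78.3 to 93.1) in 9 of 21 clones, and in EAE for 257 of 340 (75.6%, 70.7 to 80.1) in 10 of 93 clones. By isotype the EAE shares were 97.7% of IGHA (128 of 131, 93.5 to 99.5), 100% of the 16 IGHG2C barcodes and 59.0% of IGHM (111 of 188, 51.7 to 66.1). Of the 84 EAE IGHM clones 77 had 1 barcode. The naive shares were 91.4% of IGHA (53 of 58, 81.0 to 97.1), 92.9% of IGHG2B (26 of 28) and 0 of the 6 IGHM barcodes. At an equal number of 16 barcodes, the expected number of clones was 9.81 for EAE IGHM, 8.0 for naive IGHA, 3.21 for EAE IGHA, 2.14 for naive IGHG2B and 1 for EAE IGHG2C.

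The largest EAE clone, IGHV8-8 IGHJ4, had 94 barcodes, 91 IGHA and 3 IGHM. The 3 IGHM contigs held 9, 9 and 22 UMIs. IGHV1-39 IGHJ3 had 21 IGHA barcodes and 2 with no constant gene given, and the naive IGHV1-34 IGHJ3 clone 7 IGHA and 1 IGHG2B barcode. No other clone held more than 1 isotype class. The remaining large clones were IGHV7-1 IGHJ1 (73 barcodes, IGHM), IGHV1-78 IGHJ2 (17, IGHM), IGHV5-17 IGHJ4 (16, IGHA), IGHV9-3 IGHJ3 (16, IGHG2C) and IGHV1-9 IGHJ1 (10, IGHM). After them came IGHV2-3 IGHJ2 (4), IGHV4-1 IGHJ3 (2) and IGHV9-3 IGHJ2 (2), all IGHM.

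The naive order was IGHV1-72 IGHJ3 (26 barcodes, all IGHG2B), IGHV5-16 IGHJ2 (13, IGHA), IGHV11-2 IGHJ2 (10, IGHA), IGHV1-34 IGHJ3 (8), IGHV5-17 IGHJ4 (8, IGHA) and IGHV1-64 IGHJ2 (5, IGHA). IGHV1-18 IGHJ2 (4), IGHV1-12 IGHJ2 (3) and IGHV1-22 IGHJ2 (3) followed, all IGHA, before 12 clones of 1 barcode such as IGHV1-15 IGHJ1 (IGHM). Some clones shared their CDR3 under another V gene name, so their V assignment is uncertain. The IGHV1-34 CDR3 also occurred once each under IGHV1-18, IGHV1-53 and IGHV1-72. The IGHV8-8 CDR3 occurred once under IGHV2-4. Such CDR3s numbered 3 in each table, and counting clones by CDR3 alone gave 15 naive and 89 EAE clones.

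UMI counts within a clone were far from even, and clones differed in how. The 26 barcodes of the naive IGHV1-72 clone held 2024, 1778, 731, 410 and 141 UMIs in the 5 highest and 2 to 23 in the other 21, with 86.2% of 5260 UMIs in the top 3 barcodes. The naive IGHV1-18 clone had 705 UMIs in 1 barcode and 6 to 10 in the other 3. The naive IGHV1-34 clone had 151 in 1 barcode and 4 to 14 in the rest. The naive IGHV5-16 clone held 17 UMIs in its highest barcode and 1 to 4 in the other 12, and the IGHV11-2 clone 23 and 1 to 6. Only 7 naive barcodes exceeded 100 UMIs, and these held 91.7% of all naive heavy chain UMIs.

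EAE clones were of both kinds. The IGHV1-78 clone had 872 and 480 UMIs in 2 barcodes and at most 14 in the other 15. The IGHV5-17 clone had 461 in 1 and at most 8 in the other 15, and the IGHV1-9 clone 351 and 271 in 2 and 7 to 32 in the other 8. By contrast IGHV8-8 had its highest values at 103, 100 and 71 around a median of 14, and the top barcode held 5.73% of 1799 UMIs. In IGHV7-1 the highest barcode held 110 UMIs, 8.24% of 1335, and in the IGHG2C clone IGHV9-3 the 16 values ran from 2 to 33, with 12.9% in the highest. Clones of 1 barcode had a median of 4 UMIs, but 1 of them, IGHV14-1 IGHJ2 (IGHM), held 440 and another, IGHV1-55 IGHJ3 (IGHM), 106. These single clones were named after their values were seen.

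**Figure D4:**
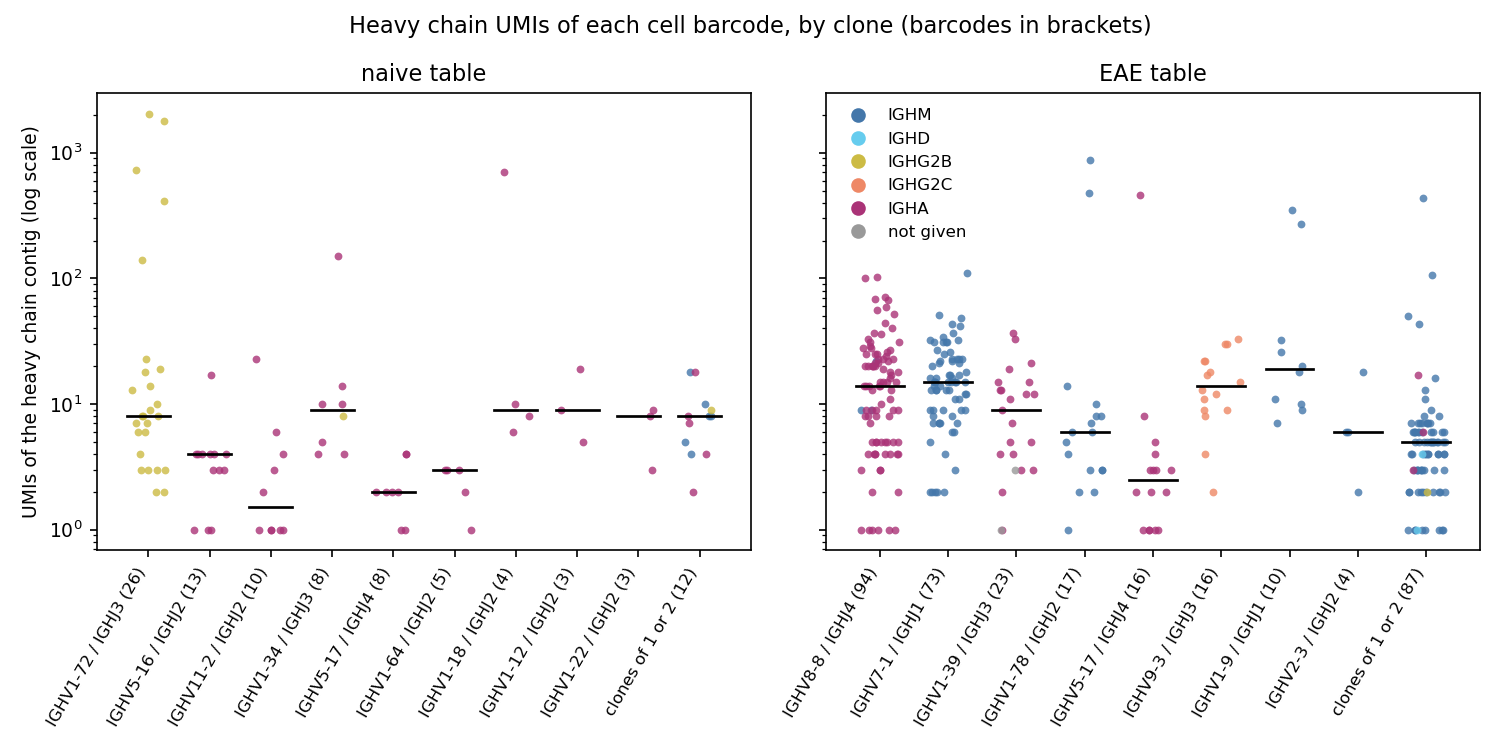
UMIs of the heavy chain contig in each cell barcode (log scale), by clone, for clones of 3 or more barcodes and for the rest together; colours give the isotype and black lines the median. IGHV1-72, IGHV1-34, IGHV1-18, IGHV1-78, IGHV5-17 (EAE) and IGHV1-9 each had 1 to 5 barcodes above 100 UMIs over a low remainder. IGHV8-8 and IGHV7-1 spread without such a gap up to 103 and 110.

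The expression library placed the EAE heavy chains. Of the 233 found there, 200 had one of the authors' clusters and 23 of these lay in the clusters named Bc, BcProg or cswBc. The other 177 (88.5%, 83.2 to 92.6) lay in myeloid, granulocyte, dendritic, T or NK cell clusters. Of those 177, 151 (85.3%) held 0 UMIs of 5 B cell genes (Cd79a, Cd79b, Ms4a1, Ebf1, Pax5), beside 87.0% of 4292 barcodes of the same clusters without a heavy chain, at median depths of 12046 and 11639 UMIs. Clones of 5 or more gave 173 of the 177. The barcode numbers of the large EAE clones are therefore not numbers of B cells, and how these contigs came to such barcodes was not tested.

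Among clusters, Bc had the highest share of barcodes with a heavy chain, mostly from small clones, though its interval overlapped that of cswBc (3 of 11, 27.3%, 6.02 to 61.0). In Bc, 13 of 25 barcodes (52.0%, 31.3 to 72.2, median depth 8395 UMIs) had one, in the granulocyte clusters 35 of 1078 (3.25%, median depth 13637) and in the myeloid and mDC clusters 108 of 2466 (4.38%, median depth 12276). In pDC it was 13 of 126 (10.3%, 5.61 to 17.0), all from clones of 5 or more. The 13 Bc heavy chains came from 13 different clones, 11 of them of 1 to 4 barcodes. Their isotypes were 10 IGHM, 2 IGHA and 1 IGHG2B. Of clones of 1 to 4 with a cluster, 14 of 18 (77.8%, 52.4 to 93.6) lay in Bc (11) or BcProg (3), but of the 64 IGHV8-8 barcodes with a cluster 1 did (1.56%) and of the 56 IGHV7-1 barcodes 4 (7.14%).

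By isotype, 18 of 89 IGHM barcodes with a cluster lay in the clusters named Bc, BcProg or cswBc (20.2%, 12.4 to 30.1), 4 of 96 IGHA (4.17%, 1.15 to 10.3) and 0 of 12 IGHG2C (a limit of 25%). Without BcProg, whose markers go against its name, these were 12 IGHM barcodes (13.5%, 7.17 to 22.4) and 3 IGHA barcodes (3.12%, 0.649 to 8.86). Presence in the library differed as well: 104 of 188 IGHM barcodes were found (55.3%) and 112 of 131 IGHA barcodes (85.5%). Only 24 of the 91 barcodes of clones of 1 to 4 were found (26.4%), against 79 of 94 for IGHV8-8 (84.0%). The barcodes with 440 (IGHV14-1) and 351 (IGHV1-9) UMIs were among those not found. The library holds 5000 barcodes.

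**Figure D5:**
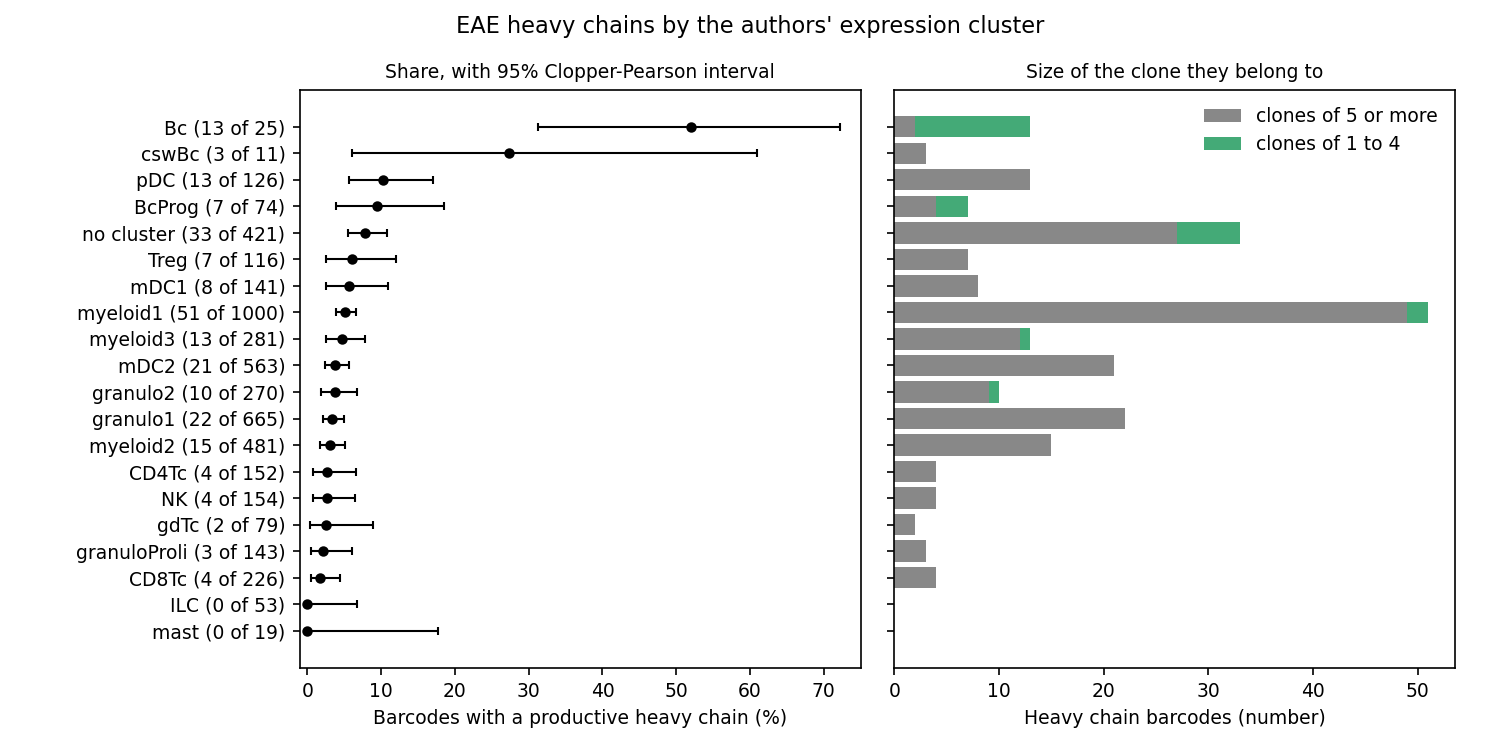
EAE heavy chains by the authors' expression cluster: the left panel gives the share of barcodes with a productive heavy chain (%, 95% Clopper-Pearson interval), the right panel the number of those barcodes by the size of their clone. Bc stands at 52.0% with 11 of 13 from clones of 1 to 4, whereas myeloid1 has 51 of 1000 with 49 from clones of 5 or more.

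The cluster names were set against marker genes. Bc held 38.6 UMIs of the B cell list per 10000 UMIs, found in all 25 barcodes, and 155 of the neutrophil list (S100a8, S100a9, Retnlg, Ly6g), whose part in the results was not tested. In the EAE library BcProg went against its name: 7 of 74 barcodes held 2 or more UMIs of the B cell list, against 88 of 92 in the naive library, and the macrophage and monocyte list (Lyz2, Csf1r, Adgre1, C1qa, Ly6c2) stood at 166 per 10000 beside 2.08 for the B cell list. The B precursor list (Rag1, Rag2, Dntt, Vpreb1, Igll1) stood at 0.824 per 10000 in EAE BcProg. It stood at 3.35 in BcProg of the naive library and at 2.65 in Bc of the EAE library. The 7 heavy chain barcodes of EAE BcProg were 4 of large clones and 3 of small ones. The cswBc cluster held 345 UMIs per 10000 of the plasma cell list (Jchain, Sdc1, Xbp1, Prdm1, Mzb1, Tnfrsf17, Derl3, Irf4), 309 of them Jchain, the chain that links IgM and IgA subunits, and 5.89 of the B cell list.

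The contig's own constant gene was the most abundant one in 12 of 13 Bc, 5 of 7 BcProg and 3 of 3 cswBc barcodes. In Bc and BcProg most contigs were IGHM (10 of 13 and 6 of 7). Ighm was also the most abundant, Ighd left aside, in every Bc barcode without a heavy chain contig (1 to 82 UMIs). The IGHM contigs in Bc can therefore not be read as a match of isotype and constant gene. Of the switched contigs in Bc, the IGHG2B one stood with 5 Ighg2b and 1 Ighm UMI. The exception in Bc was a contig of the large IGHV1-39 clone, IGHA with 1 UMI, in a barcode with 33 Ighm and 0 Igha UMIs. The other IGHA contig in Bc, IGHV1-26 IGHJ4 with 3 UMIs, had 33 Igha and 1 Ighm UMI. The 10 Bc barcodes with IGHM contigs held 17.2 Ighm UMIs per 10000 (14.7 to 19.9) and 0.0999 Igha (0.00253 to 0.556).

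In cswBc all 3 barcodes with a contig matched. The 2 IGHV1-78 IGHM barcodes with 872 and 480 contig UMIs held 4077 and 2240 Ighm UMIs and 1 and 0 Igha UMIs. The IGHV5-17 IGHA barcode with 461 contig UMIs held 2462 Igha and 0 Ighm. These 3 barcodes held 1061, 695 and 1149 UMIs of the plasma cell list and 0 of Ms4a1, the gene of the B cell surface protein CD20. The other 8 of the 11 cswBc barcodes had no contig at all, heavy or light, although 5 of them held 1358 to 5489 Ighm UMIs and 3 held 1269 to 5788 Igha UMIs.

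Outside these 3 clusters the switched isotypes did not go with their constant gene. The 92 IGHA barcodes there held 10 Igha UMIs in all, 0.0843 per 10000 (0.0404 to 0.155), beside 0.103 (0.0949 to 0.112) in barcodes of the same clusters without a heavy chain. The 12 IGHG2C barcodes held 0 Ighg2c UMIs, which allows up to 0.210 per 10000, beside 0.0272 without a heavy chain. For IGHM the 71 barcodes held 1.63 Ighm UMIs per 10000 (1.39 to 1.90), above the 0.959 (0.933 to 0.985) without a heavy chain but also near the 1.37 (1.16 to 1.59) of the IGHA barcodes. Their own constant gene was the most abundant in 44 of 71 IGHM, 5 of 92 IGHA and 0 of 12 IGHG2C barcodes. No such count was made for barcodes without a heavy chain, where Ighm stood at 0.959 per 10000 and Igha at 0.103. The 44 of 71 can therefore not be read as a match of isotype and constant gene.

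Restricting the EAE table to the 41 barcodes with 2 or more UMIs of the B cell list left 26 IGHM (63.4%, 46.9 to 77.9), 12 IGHA (29.3%, 16.1 to 45.5), 2 IGHG2C and 1 IGHG2B barcode. Not all of these lay in Bc, BcProg or cswBc: 8 lay in other clusters, and others had no cluster. Those 3 clusters held only 4 IGHA barcodes in all. Doublets were not called. The 41 barcodes came from 26 clones, and 48.8% (32.9 to 64.9) belonged to clones of 2 or more. IGHJ1 was used by 26.9% (11.6 to 47.8) of the IGHM barcodes there, and IGHV8-8 by 19.5% (8.82 to 34.9) of all. In Bc, BcProg and cswBc together 23 barcodes came from 19 clones, and 26.1% (10.2 to 48.4) belonged to clones with 2 or more barcodes there. In Bc and cswBc alone 16 barcodes came from 15 clones, and 12.5% (1.55 to 38.3) did. Among contigs of 20 or more UMIs the table kept 82 EAE barcodes, 40 IGHA, 37 IGHM and 5 IGHG2C, and 9 naive barcodes, 6 IGHG2B (all IGHV1-72) and 3 IGHA.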

How the data were processed

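The contig tables hold UMI and read counts per contig, deposited by the authors in the Cell Ranger layout, with V, J and constant gene calls and CDR3s. Per the labels' protocols, receptor cDNA was enriched from the 3' expression libraries after circularisation, with the constant region removed. Expression files hold raw UMI counts, deposited by the authors with cluster names. Cell Ranger 3.1.0 and mm10 are named in the submitters' processing notes. The condition fields of the labels disagree, and titles were used.

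Productive IGH contigs were kept, 1 per barcode, ranked by UMIs and then reads. Clones share V gene, J gene and CDR3 bases. All top contigs were full length, and held 1 to 2024 (naive) and 1 to 872 (EAE) UMIs, medians 4.5 and 8, and intervals on shares treat barcodes as separate draws, so by-clone values stand beside them. Barcodes were joined to the expression library on their bases. Expected clone numbers are hypergeometric. Germline ends came from GENCODE M21. Doublets were not called. The B cell list was used without 1 of its genes, which is not reported here. No test was made, and the steps were tested on simulated contigs. The text names the 10 most frequent V genes and largest clones per table, the 3 leading V genes per isotype of 10 or more barcodes, all J genes, the 5 leading V-J pairs by clones, and clones of mixed isotype. Members and lists were chosen with earlier results of these data known. Python 3.11.15, pandas 2.3.3, numpy 2.4.6, scipy 1.17.1 and matplotlib 3.10.9 were used.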

Additional observations from a re-analysis of the deposited data

How the results depend on the processing

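Of 147 values under alternatives, over 16 results, 109 stayed within the main value's 95% interval (counts of clones within 1.5 times) and 38 moved. Requiring 2 UMIs, ranking by reads, exactly 1 heavy chain contig or a light chain contig moved none of the results computed. Requiring full-length confident contigs removed no top contig. Its values could therefore not move, and they are counted among the 109. Counting each clone once moved EAE IGHA to 6.32%, IGHV8-8 to 3.23%, IGHV1-72 to 14.3%, IGHJ4 of EAE IGHA to 66.7%, IGHJ1 of EAE IGHM to 25.0% and the EAE IGHA CDR3 median to 46.5 bases. Barcodes in the EAE library gave IGHA 48.1%, IGHV8-8 33.9%, IGHJ1 of IGHM 70.2%, 30 clones and 90.6% in clones of 2 or more, and the clusters Bc, BcProg and cswBc 19 clones and 26.1%. The naive table has no value under these, since 0 of its barcodes are in a library. Clones by CDR3 alone put 94.6% of naive barcodes in clones of 2 or more. The following alternatives were chosen after seeing the data. Counting each CDR3 once gave IGHA 50% (naive) and 5.43% (EAE), IGHJ4 of EAE IGHA 60%, IGHJ1 of EAE IGHM 23.2% and an EAE IGHA CDR3 median of 42 bases. Bc and cswBc alone gave 15 clones and 12.5% in clones of 2 or more. With 20 or more UMIs, IGHA was 33.3% (naive) and 48.8% (EAE), IGHV1-72 66.7%, IGHV8-8 45.1%, IGHJ4 of EAE IGHA 92.5%, IGHJ1 of EAE IGHM 83.8%, the naive IGHA CDR3 median 39 bases, the clones 4 and 11, the shares in clones of 2 or more 66.7% and 93.9%, and Bc barcodes with a heavy chain 0%. With 2 or more UMIs of the B cell list, EAE gave IGHA 29.3%, IGHV8-8 19.5%, IGHJ1 of IGHM 26.9%, 26 clones and 48.8% in clones of 2 or more. The cause of these moves was not tested. No paired analysis was possible because each condition is 1 pooled sample and no value comes from a test.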

Other observations

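The same light chain, by V gene, J gene and CDR3 bases, stood in barcodes of many heavy chain clones. A light chain of IGKV15-103 with IGKJ1 was the most frequent one in 6 of the 7 EAE clones of 5 or more barcodes. It stood in 36 of the 84 IGHV8-8 IGHJ4 barcodes with a light chain, in 29 of 65 for IGHV7-1 IGHJ1 and in 14 of 23 for IGHV1-39 IGHJ3. The same light chain was found in 84 of the 246 EAE heavy chain barcodes outside the IGHV8-8 clone. The 7 EAE clones of 5 or more barcodes had 7 to 18 different light chains each, counted by V gene, J gene and CDR3 bases. In the naive table a light chain of IGLV1 with IGLJ1 led in 5 of the 6 clones of 5 or more, with 14 of 22 for IGHV1-72 IGHJ3. It stood in 36 of the 66 heavy chain barcodes outside that clone.

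A second productive heavy chain contig occurred in 25 of 92 naive and 57 of 340 EAE barcodes. It held a median of 2 UMIs in both tables, beside 5 and 9 for the top contig of the same barcodes. None had the CDR3 of the top contig, and 18 of 25 and 52 of 57 belonged to a clone of 5 or more barcodes. Of all top contigs, 70 of 92 naive and 249 of 340 EAE ones did, so only the EAE share of second contigs was higher.

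The naive expression library, whose barcodes the naive contig table does not share, had 13 cswBc barcodes with 31090 Ighm, 22581 Igha, 8106 Ighg2b and 1874 Ighg2c UMIs. The 11 cswBc barcodes of the EAE library had 25460 Ighm, 13318 Igha, 0 Ighg2b and 0 Ighg2c UMIs. IGHG2B was 28 of 92 barcodes in the naive contig table, and the 16 IGHG2C contigs were all in the EAE contig table.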
